A study of Homo sapiens with 12 samples.

Results

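The domains described here are 3 pieces of Polycomb group proteins that were recruited, each next to a second domain, to a reporter gene in human K562 cells: tile 18 of CBX7 (ENSG00000100307), tile 62 of SCML2 (ENSG00000102098) and the RING-type zinc finger domain of PCGF2 (named PCGF2_HUMAN, family zf-C3HC4_2). A tile is a stretch of a protein taken from a tiled library, and the tiles are named by Ensembl identifier and tile number. Every ordered domain pair that holds at least 1 of these domains was taken as a member, which gave 591 of the 9983 pairs listed. The library of 100 domains allows 10000 ordered pairs. Each of the 3 domains had 199 pairs, 100 as first domain and 100 as second domain, and 9 of the pairs held these domains in both positions. CBX7 lies on chromosome 22 at chr22:39130772-39152680, SCML2 at chrX:18239313-18355118 and PCGF2 at chr17:38733898-38749792 (GRCh38.p14). The library carries protein-coding pieces of these genes, not the loci themselves.

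Polycomb repressive complex 1 (PRC1) is a family of chromatin complexes that keep developmental genes silent. Its core joins a RING1 protein, which attaches ubiquitin to histone H2A, to a PCGF protein such as PCGF2 (also called MEL18), whose RING finger pairs with that of the RING1 protein. In canonical PRC1, CBX7 is the subunit that binds trimethylated lysine 27 of histone H3 through its chromodomain and binds the RING1 protein through a short segment at its C-terminal end, while SCML2 is a Polycomb group protein with MBT repeats and a SAM domain. RYBP and YAF2 take the place of the CBX subunit in variant PRC1. A library of this kind asks what a repressive domain does when an activating, a repressive or an inert domain sits beside it.

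Libraries were made from genomic DNA and count read pairs per ordered domain pair. K562, a human leukemia line, carried the reporter pDY032 in the activation screen and the reporter pJT039 in the repression and memory screens. All cells received lentivirus encoding rTetR, a DNA-binding protein that needs doxycycline, fused to 2 domains in tandem, at about 600 infected cells per library member, and were selected with blasticidin for 7 days. Doxycycline at 1000 ng/mL was added on day 8 after infection for 2 days in the activation screen and for 5 days in the repression screen. In the memory screen 5 days with doxycycline were followed by 5 days without it. Cells were then split into a bound and an unbound fraction. There were 2 replicates per fraction and screen, infected separately, which makes 12 libraries. The titles of the 4 memory libraries call that screen unused. All 3 screens used 1 cell line. The spread behind the tests was estimated over all 12 libraries, so where a replicate of a screen is left out below, the lone one is assumed to vary like the others, and a lost call then also reflects fewer samples.

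Bound was taken to be the fraction with the reporter on, which follows the series' formula of ON over OFF reads. Levels are log2 ratios of bound to unbound reads, set to 0 at pairs that join 2 control domains: a negative value means fewer reporter-on cells and a positive value more. Control domains were 11 tiles of DMD (dystrophin) and 10 random sequences, 21 of the 100. A domain's effect was measured on reads summed over its pairs with control domains, and each pair was also tested on its own, both with edgeR's quasi-likelihood test. A result was called higher or lower where its Benjamini-Hochberg adjusted p over all domains or pairs of that screen was at or below 0.05. A replicate score is the same log2 ratio in 1 replicate, with counts below 5 set to 5, centred on the median control pair. In pair names the first domain is written first.

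Depth differed widely between libraries. Totals ran from 612999 read pairs in the unbound library of activation replicate 2 to 55121999 in the bound library of activation replicate 1. The median count of a member pair ran from 28 in that shallow library to 1892 in the unbound library of activation replicate 1, so replicate 2 of the activation screen is the least precise. Pairs of a domain with itself stood apart. In memory replicate 1 they scored above replicate 2 in 100 of 100 cases, with medians of 3.22 and -0.31, against 42.8% of the other pairs. In activation replicate 1 was the higher in 5 of 99 cases (medians -0.97 and 0.29), against 54.6% of the other pairs. For repression the count was 25 of 100 (medians -2.26 and -1.66), against 65.7%. The median read count of same-domain pairs over the 4 memory libraries was 25220 against 4086 for the other pairs. The same-domain pairs of CBX7, SCML2 and PCGF2 are counted with the other pairs, and their own values are given below.

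Beside control domains all 3 domains lowered the reporter-on fraction in the repression screen. CBX7 tile 18 had replicate scores of -3.55 and -4.06 and a log2 of -3.79 (SE 0.17, n = 2), a 13.8-fold lower bound-to-unbound ratio than the control pairs. SCML2 tile 62 scored -2.09 and -2.95, with a log2 of -2.24 (SE 0.22), which is 4.72-fold lower. The PCGF2 domain scored -2.29 and -2.54, with a log2 of -2.25 (SE 0.15), which is 4.75-fold lower. The replicate scores of CBX7 lay below those of SCML2 and PCGF2 without overlap, while those of SCML2 and PCGF2 overlapped. The size for SCML2 varied with the kind of control partner, at -1.39 with DMD partners only and -2.65 with random partners only. PCGF2 stood at -1.91 and -2.41 and CBX7 at -3.81 and -3.78 in these fits, where each domain stayed called. The gap between the kinds of control was not tested. All 3 were called lower, as were 70.9% of the 79 domains that are not controls (CBX7 adjusted p = 1.87e-58 by edgeR). The strongest effects in this screen came from the 3 KRAB variants, and KRAB domains of zinc finger proteins are known as strong repressors that recruit TRIM28. They stood at -4.71 (P21506), -4.70 (M0QYP0) and -4.41 (Q3KP31), and CBX7 tile 18 followed as the fourth of 79, next to SUMO3 at -3.78 and RYBP tile 11 at -3.75, from which it differed by less than 1 SE. PCGF2 and SCML2 stood in places 25 and 26 from the lowest, between SSX2 at -2.29 and ENSG00000141644 tile 47 at -2.20, again within 1 SE. The zero point matters here: with TMM scaling over all pairs in place of the control pairs it moved by 1.97, and CBX7 then stood at -1.82, still called, while SCML2 at -0.27 and PCGF2 at -0.28 were not called by edgeR.

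In the activation screen the 3 domains lay a little below the control pairs. CBX7 tile 18 scored -0.74 and -0.65, with a log2 of -0.67 (SE 0.15). PCGF2 scored -0.74 and -0.51, with a log2 of -0.58 (SE 0.15). SCML2 tile 62 scored -0.57 and -0.63, with a log2 of -0.40 (SE 0.21). CBX7 and PCGF2 were called lower, and SCML2 was not (adjusted p = 0.0771 by edgeR). Of all 79 domains 35.4% were called lower in this screen, so being lower than control pairs on this reporter was common. CBX7 was no longer called in the second position alone (-0.40, adjusted p = 0.084 by edgeR). PCGF2 was no longer called with DMD partners alone (-0.33, adjusted p = 0.17 by edgeR), and SCML2 was called with the domain in the first position alone (-0.55, adjusted p = 0.022).

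After doxycycline removal, 5 days without recruitment, the tile of CBX7 kept a lower reporter-on fraction, at a reduced size. Its memory scores were -1.26 and -0.90 and its log2 was -1.24 (SE 0.15, adjusted p = 8.84e-13 by edgeR), 2.36-fold below the control pairs. This was the fourth lowest of 79, behind the KRAB variants at -2.15, -1.82 and -1.65 and next to CBX1 at -1.13, from which it differed by less than 1 SE. PCGF2 scored -0.48 and -0.52, with a log2 of -0.47 (SE 0.15, adjusted p = 0.00618 by edgeR). SCML2 tile 62 scored -0.42 and -0.04, with a log2 of -0.42 (SE 0.21, adjusted p = 0.105), and was not called. Of all 79 domains 36.7% were called lower in memory. The PCGF2 call was lost without replicate 1 (-0.45, adjusted p = 0.229) and without replicate 2 (-0.48, adjusted p = 0.152), whereas CBX7 stayed called without replicate 1 (-1.05) and without replicate 2 (-1.42). In a fit of the memory libraries alone CBX7 had an adjusted p of 0.0475 and PCGF2 of 0.0491 by edgeR. With libraries scaled over all pairs, SCML2 and PCGF2 stood above 0 in memory (0.14 and 0.0921), neither called.

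**Figure D1:**
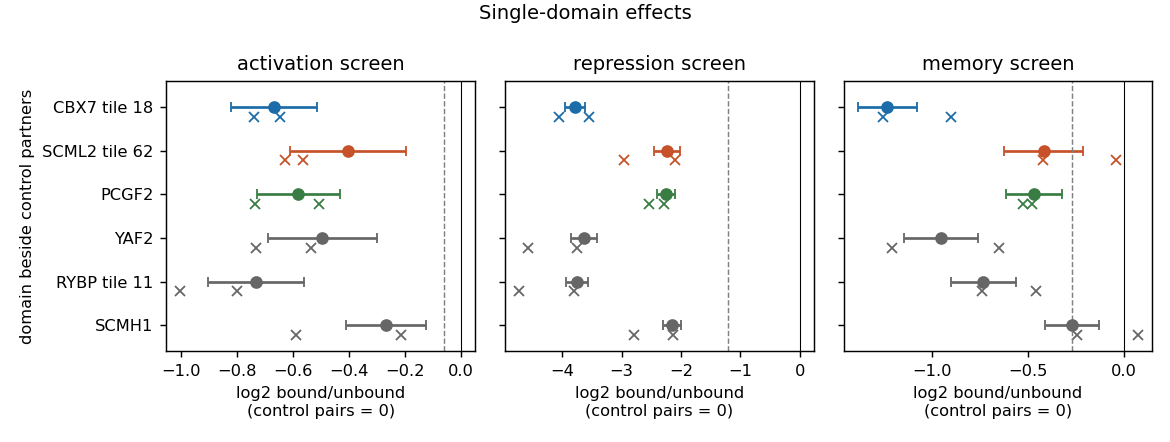
Effect of each domain of the Polycomb list beside control domains in the 3 screens, as log2 bound over unbound relative to control pairs (x axis, with a separate scale per panel). Circles are the edgeR estimates with SE bars, crosses the 2 replicate scores and the dashed line the median of the 79 domains; CBX7 tile 18 sits at -3.79 in repression and at -1.24 in memory, and SCML2 and PCGF2 sit close together at -2.24 and -2.25 in repression.

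The loss between the repression and the memory screen was tested directly within 1 fit. Memory minus repression was 2.55 for CBX7 tile 18 (SE 0.22, adjusted p = 4.02e-24 by edgeR), 1.82 for SCML2 (SE 0.29) and 1.78 for PCGF2 (SE 0.21). All 3 were called higher in memory, as were 58.2% of the 79 domains, whose median difference was 1.11. The calls of SCML2 and PCGF2 depend on the zero point of the scores: with TMM scaling over all pairs the differences were 0.41 for SCML2 (adjusted p = 0.209 by edgeR) and 0.37 for PCGF2 (adjusted p = 0.082), and with total counts SCML2 was at 0.49 (adjusted p = 0.102), none called. The cultures of the 2 screens differ in days after doxycycline and in libraries, so the passage of time and the library cannot be told apart. The domain with the largest difference was RYBP tile 11, at 3.02 (SE 0.25): it stood next to CBX7 in repression, at -3.75, and at -0.73 in memory.

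The library held 6 domains of the Polycomb list, and the others were YAF2, RYBP tile 11 and the SAM domain of SCMH1, a relative of SCML2. The tile of RYBP is listed as ENSG00000163602 tile 11, and the tables used here do not pair that identifier with a symbol. All 6 were called lower in repression, with a median of -2.94 against -1.21 over all 79 domains. YAF2 stood at -3.63 (SE 0.21) and SCMH1 at -2.15 (SE 0.15), so the 6 fell into a group of 3 near -3.7 (CBX7, RYBP, YAF2) and a group of 3 near -2.2 (PCGF2, SCML2, SCMH1). Of these 6 domains 4 were called lower in activation (median -0.54 against -0.06 over all 79) and 4 in memory (median -0.60 against -0.27). SCML2 and SCMH1 were the 2 without a call in either. YAF2 reached -0.96 in memory. Among 4 domains of the HP1 and chromodomain list (CBX1, CDYL2, MPP8 and CHD3), readers or remodelers associated with heterochromatin and other repressed chromatin, 3 were called lower in repression (list median -3.20) and 3 in memory (median -0.87). Among these 4, CHD3 was the exception at -0.18 in repression and 0.16 in memory. Apart from CBX7, SCML2 and RYBP, tiles listed by Ensembl identifier were not matched to either list, so both lists may be incomplete.

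Over all partners, 438 of the 535 member pairs tested in repression were called lower and 1 was called higher, where 56.5% of all 9062 pairs tested were lower and 0.519% higher. The remaining pairs had too few reads. CBX7 tile 18 gave 182 lower calls of 192 pairs (94.8%), PCGF2 155 of 188 (82.4%) and SCML2 107 of 161 (66.5%). The median pair scores were -3.67, -3.0 and -3.17 against -1.97 over all pairs. Reads differed between the domains, and their part in these counts was not tested: with SCML2 in the first position the median pair had 372 reads over the repression libraries, against 6550 for CBX7 and 3745 for PCGF2. Without replicate 2 the SCML2 count was 71. With TMM over all pairs PCGF2 had 87 and SCML2 54 lower calls, and with total counts 94 and 56. Scores of the 2 replicates correlated over partners with Pearson r of 0.58 (CBX7), 0.65 (SCML2) and 0.70 (PCGF2), values over pairs that share 1 domain and the same libraries.

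**Figure D2:**
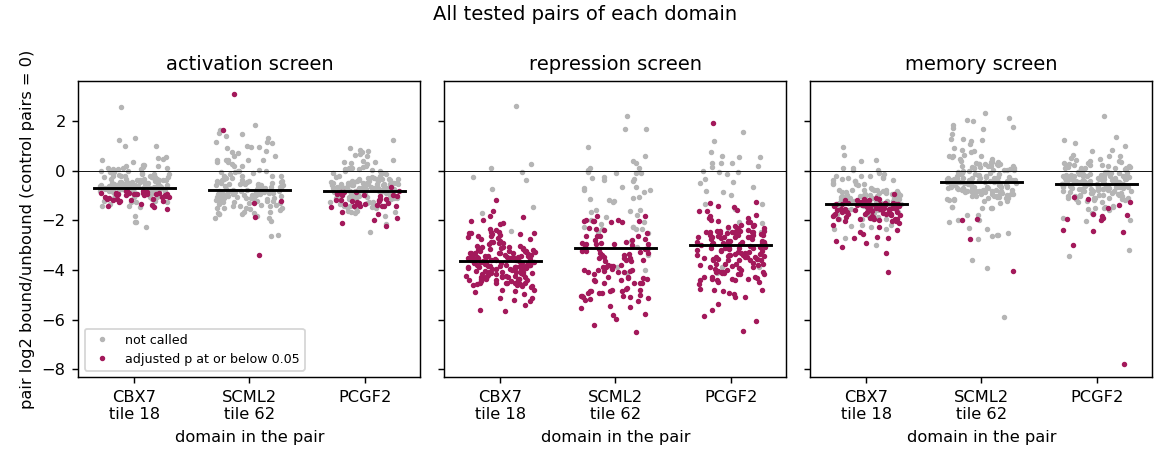
Log2 bound over unbound of every tested pair of each domain in the 3 screens (y axis, relative to control pairs; 1 point per ordered pair, magenta where called and a black bar at the median). In repression the points of CBX7 lie almost wholly below 0, with 182 of 192 called lower; in memory 89 of 194 CBX7 pairs are called lower, against 4 of 178 for SCML2 and 16 of 193 for PCGF2.

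In memory most of the calls were pairs of CBX7. Of 559 member pairs tested 107 were called lower and 0 higher, where 7.1% of all 9337 pairs were lower and 0.257% higher. By DESeq2 and at an unadjusted p under 0.05 in edgeR, 0 CBX7 and 0 SCML2 pairs were higher, and PCGF2 had 1 by each. CBX7 had 89 lower calls of 194 (45.9%), PCGF2 16 of 193 (8.29%) and SCML2 4 of 178 (2.25%). Median pair scores were -1.32, -0.50 and -0.43, against -0.37 over all pairs. These counts rest on both replicates. Without replicate 1 no pair of the 3 domains was called lower by edgeR, although 88 CBX7, 18 PCGF2 and 5 SCML2 pairs stayed lower at an unadjusted p under 0.05. Without replicate 2 the counts were 51 for CBX7, 5 for PCGF2 and 1 for SCML2. Memory minus repression was called higher in 145 of 190 CBX7 pairs, 124 of 185 PCGF2 pairs and 71 of 158 SCML2 pairs, 336 of 527 in all, beside 41.2% of all pairs. Without replicate 2 the counts of PCGF2 and SCML2 were 78 and 33. In the order CBX7, PCGF2 and SCML2, scaling by total counts gave 44, 39 and 16 higher calls for this difference and 39, 4 and 2 lower calls in memory, and TMM over all pairs gave 43, 39 and 19 and 34, 5 and 2.

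**Figure D3:**
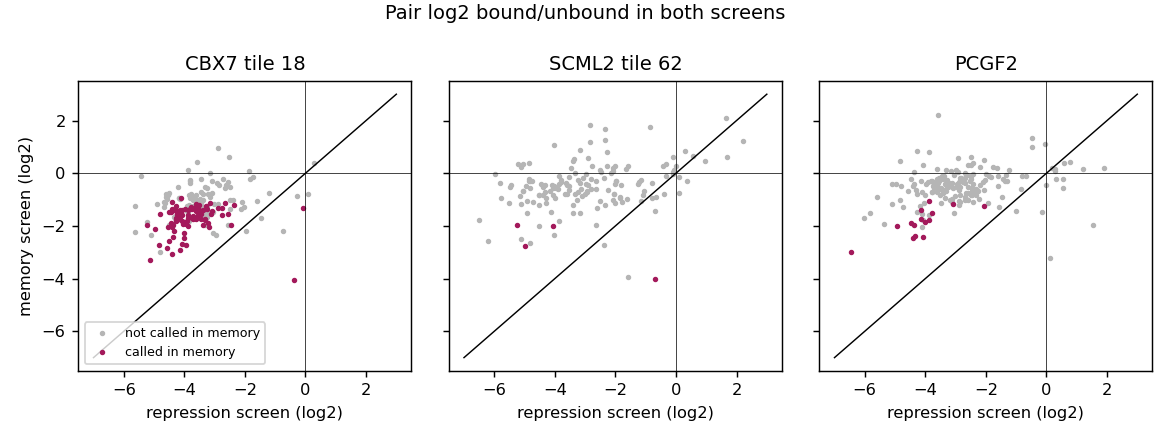
Memory against repression log2 for the pairs of each domain (x axis repression, y axis memory, both relative to control pairs; the diagonal marks equal values, and magenta points are called in memory). Most points lie above the diagonal, and the pairs of DPF1 with CBX7 at -4.06 and with SCML2 at -4.03 in memory are among the few below it.

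In the activation screen 81 of 526 member pairs were called lower and 2 higher, where 9.49% of all 9063 pairs were lower and 14.8% higher. CBX7 had 39 lower calls of 193 and PCGF2 38 of 186, while SCML2 had 4 of 153. The median pair scores were -0.68, -0.81 and -0.83 in that order, against -0.34 over all pairs. SCML2 pairs were thus as low as the others at the median, despite fewer calls. With SCML2 first the median pair had 788 reads over the activation libraries, against 12091 for CBX7 and 6793 for PCGF2. The part of reads in these counts was not tested. CBX7 had 0 higher calls by edgeR, by DESeq2 and at an unadjusted p under 0.05. PCGF2 had 0 by edgeR and DESeq2 and 1 at an unadjusted p under 0.05. The 2 higher pairs both joined SCML2 to NCOA2. These calls rest on both replicates: without replicate 1 the lower calls by edgeR were 4 for CBX7, 2 for PCGF2 and 0 for SCML2 (39, 28 and 5 at an unadjusted p under 0.05), and without replicate 2 they were 0, 4 and 0 (24, 28 and 5). Scaled by total counts they were 156, 141 and 76.

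By point estimate the pairs with activation domains lay below the median of the same activators beside control domains. SCML2 + NCOA2, at 3.06, was within its SE of the NCOA2 median. The activator list held MYBA, NCOA2 (a nuclear receptor coactivator), FOXO3, ZN473 and ENSG00000179833 tile 22, the domains with the highest activation effects in earlier results of these data. Beside control domains they stood at 4.36, 3.93, 3.76, 3.33 and 3.53 in activation. Of 41 pairs of MYBA with a control domain 40 were called higher, and for FOXO3 41 of 42.

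With CBX7 tile 18 as the partner the activators did not raise the ratio above the control pairs. The 10 pairs ran from -1.41 to 0.05 with a median of -0.78, and 1 of them was above 0. Of the 10 pairs 4 were called lower than control pairs. CBX7 + ZN473 scored -1.25 and -1.56 (log2 -1.41, SE 0.24), CBX7 + MYBA -1.27 and -1.42 (log2 -1.35, SE 0.35) and CBX7 + NCOA2 -1.03 and -1.45 (log2 -1.24, SE 0.33). With the order turned, MYBA + CBX7 scored 0.12 and -0.59 (log2 -0.22, SE 0.47), NCOA2 + CBX7 stood at -0.42 and ZN473 + CBX7 at -0.79. The same activators beside control domains had medians of 4.56 for MYBA, 4.0 for NCOA2 and 3.73 for ZN473, and both CBX7 pairs with MYBA lay below the lowest MYBA control pair, 1.5. The other CBX7 pairs with activators were FOXO3 + CBX7 at 0.05 and CBX7 + FOXO3 at -0.77, and ENSG00000179833 tile 22 gave -0.26 as first and -0.89 as second domain. NCOA2 + CBX7 and ENSG00000179833 tile 22 + CBX7 lay inside the range of their activator's control pairs, whose lowest values were -0.47 and -0.36. The other CBX7 pairs lay below that range.

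PCGF2 pairs with activators ran from -1.15 to 0.77 with a median of -0.24, and 3 of 10 were above 0. PCGF2 + ZN473 was called lower at -1.15 (SE 0.32, scores -0.58 and -1.74). PCGF2 + FOXO3 stood at 0.77 (SE 0.48) and NCOA2 + PCGF2 at 0.74 (SE 0.40), neither called.

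SCML2 tile 62 gave the highest pairs with activators by point estimate. Its 10 pairs ran from -1.20 to 3.06 with a median of 0.84, and 7 were above 0. SCML2 + NCOA2 scored 2.97 and 3.19 (log2 3.06, SE 0.97, adjusted p = 0.0383 by edgeR), with 6 unbound reads in replicate 2. NCOA2 + SCML2 scored 1.74 and 1.52 (log2 1.62, SE 0.26, adjusted p = 6.21e-04 by edgeR) and was the only one of the 14 activation pairs named by rule whose call held with either replicate left out. With libraries scaled by total counts both calls were lost, at 1.97 for SCML2 + NCOA2 (adjusted p = 0.1004 by edgeR) and 0.53 for NCOA2 + SCML2 (adjusted p = 0.0935). MYBA + SCML2 was the lowest at -1.20 (SE 0.70), with scores of -1.02 and -1.40. MYBA + SCML2 lay below every MYBA control pair, while SCML2 + NCOA2 lay inside the range of NCOA2 control pairs, -0.47 to 5.07.

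**Figure D4:**
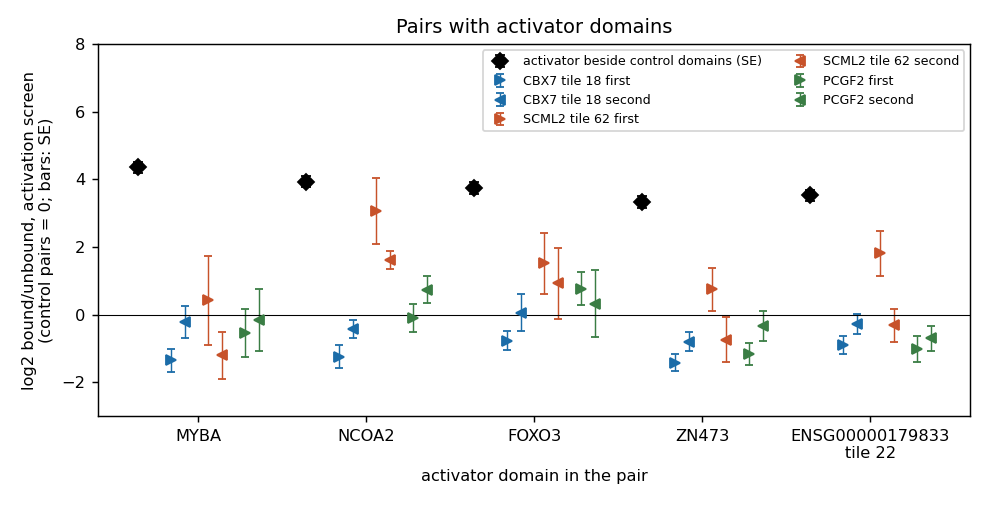
Activation log2 of each activator beside control domains (diamonds with SE bars) and beside CBX7, SCML2 and PCGF2 (right-pointing triangles with the domain first, left-pointing triangles with it second; all relative to control pairs). The diamonds lie between 3.33 and 4.36, the CBX7 triangles between -1.41 and 0.05, and only SCML2 with NCOA2 reaches 3.06.

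The difference between activator and control partners was tested on summed reads, with each domain compared to control domains beside the same partners. Reads of each library were split by partner list. The parts share a culture but were fitted as separate samples, so the adjusted p rest on more columns than independent samples. Beside activators CBX7 stood at -4.88 (SE 0.20), PCGF2 at -4.31 (SE 0.19) and SCML2 at -3.02 (SE 0.26). Beside controls in that fit they stood at -0.79, -0.71 and -0.53. The differences were -4.09 (SE 0.25) for CBX7, -3.60 (SE 0.25) for PCGF2 and -2.49 (SE 0.34) for SCML2, with adjusted p of 5.19e-12, 2.81e-11 and 1.04e-06 by edgeR. Whether the 3 domains differ from each other was not tested. Most domains shifted the same way, with 74.7% of 79 called lower and a median difference of -1.58. In repression, where the activators themselves lowered the ratio (list median -1.32), pairs of the 3 domains with activators stayed low, with medians of -3.53 for CBX7, -3.0 for PCGF2 and -3.22 for SCML2. CBX7's effect was smaller beside activators than beside controls by 1.35 (SE 0.24, adjusted p = 5.40e-04 by edgeR; 12.7% of domains were called higher), from -3.63 to -2.28. This call was lost without replicate 2 (1.00, adjusted p = 0.083). The same difference was 0.23 (SE 0.24) for PCGF2 and -0.12 (SE 0.34) for SCML2, neither called. In memory the differences were -0.07, 0.17 and -0.28, and 0% of the 79 domains were called in either direction by edgeR (4 at an unadjusted p under 0.05). CBX7 pairs with activators were still called lower in memory in 8 of 10 cases, with a median of -1.62. PCGF2 pairs ran from -1.11 to 0.52 without a call. SCML2 had 1 of 10 called, ENSG00000179833 tile 22 + SCML2 at -2.0 (SE 0.49).

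Next to KRAB variants the 3 domains stood close to control domains in repression. All 6 pairs of each domain with the 3 KRAB variants were called lower, with medians of -4.54 for CBX7, -4.37 for PCGF2 and -5.04 for SCML2, close to -4.70, the list median of the variants beside controls. The lowest were KRAB P21506 + SCML2 at -6.50 (SE 1.22), with 35 and 1 bound reads, and KRAB P21506 + PCGF2 at -6.45 (SE 0.99), with 106 and 2 bound reads. KRAB Q3KP31 + CBX7 stood at -5.64 (SE 0.90), with 65 and 11 bound reads. At so few bound reads the replicates spread widely, from -4.73 to -7.54 for the first of these. Relative to control domains beside the same KRAB variants, CBX7 stood at 0.27 (SE 0.17), PCGF2 at 0.38 (SE 0.17) and SCML2 at -0.38 (SE 0.24), none called. The differences from control partners were 3.9 (SE 0.25), 2.47 (SE 0.24) and 1.70 (SE 0.34), all called higher, beside 63.3% of the 79 domains. Adding the scores of both domains beside controls gives medians of -8.51 for CBX7, -7.50 for PCGF2 and -7.56 for SCML2. The lowest pair scored -7.10 in repression, so a full effect beside KRAB could hardly be seen. These differences therefore cannot tell how the domains combine with KRAB variants. In activation the differences were 1.45 (SE 0.24) for CBX7 and 0.83 (SE 0.24) for PCGF2, both called beside 29.1% of domains. For SCML2 the difference was 0.44 (SE 0.34), not called. The PCGF2 call was lost without replicate 1 (0.82) and without replicate 2 (0.83).

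In memory the KRAB pairs had the lowest medians of the partner lists used, with values of -2.64 for CBX7, -2.41 for PCGF2 and -1.98 for SCML2. They were called lower in 5 of 6, 5 of 6 and 1 of 6 cases. CBX7 + KRAB P21506 scored -3.13 and -2.98 (log2 -3.08, SE 0.29, adjusted p = 0.00108 by edgeR), while KRAB P21506 alone beside controls stood at -2.15. The 6 CBX7 pairs ran from -3.08 to -2.24. PCGF2 + KRAB P21506 scored -2.74 and -2.06 (log2 -2.42, SE 0.34). SCML2 + KRAB Q3KP31 was the exception, with scores of -0.19 and 0.16 (log2 -0.04, SE 1.06). The differences between KRAB and control partners in memory were 0.63 (SE 0.24) for CBX7, 0.48 (SE 0.33) for SCML2 and 0.19 (SE 0.24) for PCGF2. None was called (CBX7 adjusted p = 0.0813 by edgeR), where 8.86% of domains were called higher and 22 of 79 had an unadjusted p under 0.05.

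Pairs of 2 Polycomb domains were low in repression. With partners of the Polycomb list, CBX7 was called lower in 10 of 11 pairs (median -4.24), SCML2 in 10 of 10 (median -3.94) and PCGF2 in 10 of 10 (median -4.27), beside 41 of 41, 22 of 34 and 30 of 39 with control partners, whose medians were -3.80, -2.72 and -2.58. PCGF2 and SCML2 pairs with Polycomb partners were thus lower than their control pairs at the median, and those of CBX7 by less.

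CBX7 and PCGF2 met in both orders. CBX7 + PCGF2 scored -4.01 and -4.76 (log2 -4.36, SE 0.38) and PCGF2 + CBX7 scored -4.10 and -4.25 (log2 -4.16, SE 0.31), so the orders did not separate. SCML2 with CBX7 gave -3.85 (SE 1.23) and CBX7 with SCML2 -4.54 (SE 0.57). SCML2 + PCGF2 stood at -5.11 (SE 1.57) and PCGF2 + SCML2 at -2.91 (SE 0.65), a gap within their errors. The lowest Polycomb pairs were RYBP + PCGF2 at -5.84 (SE 1.02, scores -4.52 and -7.09), SCML2 + RYBP at -5.81 (SE 1.17, scores -4.46 and -6.64) and PCGF2 + YAF2 at -5.60 (SE 0.78, scores -4.24 and -7.23). In each of these replicate 2 was the lower, with 3, 2 and 20 bound reads.

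The only Polycomb pair of the 3 domains not called lower in repression was YAF2 + CBX7, at -1.72 (SE 1.01), whereas CBX7 + YAF2 stood at -4.06 (SE 0.46). YAF2 + SCML2 and YAF2 + PCGF2 had too few reads to be tested in any screen. With SCMH1, CBX7 gave -4.91 and -4.34, PCGF2 -2.54 and -3.42, and SCML2 -2.92 and -3.87. In memory only pairs with CBX7 were called among the Polycomb pairs: CBX7 + PCGF2 at -1.95 (SE 0.34, adjusted p = 0.00582 by edgeR), PCGF2 + CBX7 at -1.40 (SE 0.28), CBX7 + YAF2 at -1.60 (SE 0.41) and CBX7 + RYBP at -1.77 (SE 0.42). In activation SCML2 + RYBP was called lower at -3.38 (SE 1.01), with 37 and 36 bound reads, and PCGF2 + RYBP at -1.45 (SE 0.37).

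Pairs with the HP1 and chromodomain list were fewer. In repression CBX7 was called lower in 7 of 7 of them (median -4.0), PCGF2 in 5 of 6 (median -4.12) and SCML2 in 1 of 3 (median -4.01). Over all partners their shares were 94.8%, 82.4% and 66.5%, beside 56.5% of all pairs tested. In memory CBX7 was called lower in 4 of 8 (median -2.44) and PCGF2 in 3 of 7 (median -1.75). The 5 SCML2 pairs had a median of -1.08 without a call. Over all partners the memory shares were 45.9% for CBX7, 8.29% for PCGF2 and 2.25% for SCML2, beside 7.1% of all pairs.

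The same-domain pairs of the 3 domains were called lower in repression. So were 45 of the 100 same-domain pairs of the library, beside 56.5% of all pairs. CBX7 + CBX7 scored -5.74 and -5.13 (log2 -5.42, SE 0.87, adjusted p = 0.00133 by edgeR), PCGF2 + PCGF2 -4.14 and -4.43 (log2 -4.27, SE 0.68) and SCML2 + SCML2 -3.88 and -4.19 (log2 -4.01, SE 0.80). Each point estimate lay below the domain's effect beside controls, a difference that was not tested. Same-domain pairs of the library differed from other pairs between replicates in repression and activation too, as given above. The CBX7 + CBX7 call was lost without replicate 1 (-5.18, adjusted p = 0.136 by edgeR) and without replicate 2 (-5.66, adjusted p = 0.121). In activation the same-domain pairs of CBX7, PCGF2 and SCML2 stood at -2.09, -1.71 and -1.53, not called. In memory the replicates parted, as for all same-domain pairs: CBX7 + CBX7 scored 1.73 and -1.85, PCGF2 + PCGF2 2.36 and -0.64 and SCML2 + SCML2 2.88 and -0.70, and none was called.

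Pairs of non-control domains were then set against the sum of their domains' median pair scores beside controls, each in its own position, on the log2 scale, with limma on both replicates. In repression pairs of these domains were often less low than the sum: 91 of 151 CBX7 pairs, 55 of 127 SCML2 pairs and 57 of 148 PCGF2 pairs were called above it, beside 23.2% of all 5577. Called below it were 0 (1 at an unadjusted p under 0.05), 5 and 1, beside 6.24%. Median deviations were 1.68, 1.42 and 1.06 against 0.33 over all pairs. Against the stronger of the 2 single effects in place of the sum, the medians were 0.26, -0.33 and -0.23 and the counts above fell to 12, 15 and 10. With 1 replicate left out the counts above the sum were 56 to 58 for CBX7, 23 to 25 for SCML2 and 23 to 34 for PCGF2. Pairs with KRAB variants were above the sum in 6 of 6, 5 of 6 and 5 of 6 cases, with a median deviation of 4.09 for CBX7. With Polycomb partners the counts were 10 of 11, 7 of 10 and 6 of 10. The median sums with KRAB variants were -8.51, -7.56 and -7.50, below the lowest score of any pair in this screen, -7.10. Pairs could hardly reach such sums, so these KRAB counts cannot tell how the domains combine. With Polycomb partners the median sum of CBX7, -7.08, lay near that lowest score.

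**Figure D5:**
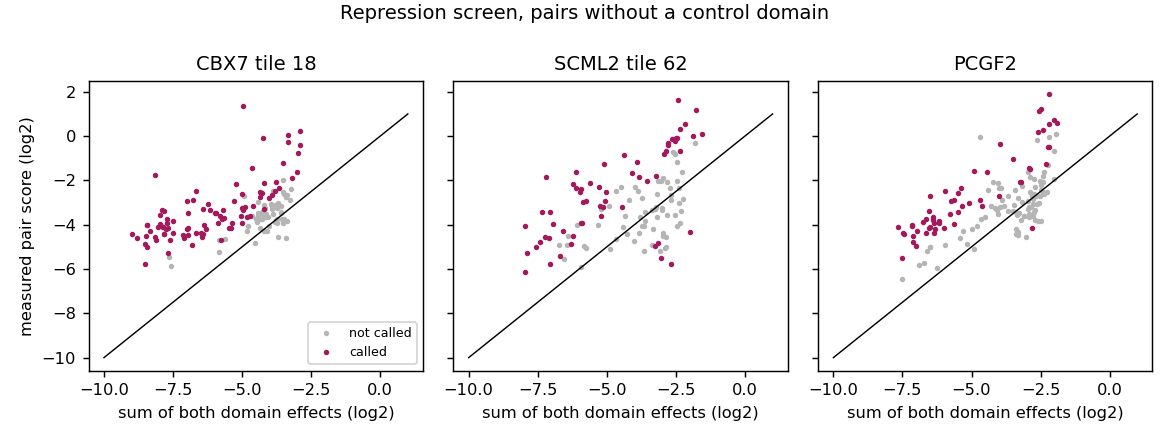
Repression score of each pair without a control domain (y axis) against the sum of the scores of its domains beside controls (x axis), for the 3 domains; the diagonal marks equality, and magenta points depart from the sum by limma. Most points lie above the diagonal on the left of each panel, where the sum is lowest, with 91 of 151 CBX7 pairs called above it.

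In activation few pairs departed from the sum. Over all partners 14 of 152 CBX7 pairs, 2 of 122 SCML2 pairs and 1 of 147 PCGF2 pairs were called above the sum, beside 8.05% of 5589, and 13, 9 and 11 below it, beside 8.64%. Many of the pairs below it were those with activators: 10 of 10 for CBX7, 9 of 10 for PCGF2 and 6 of 10 for SCML2. Their median deviations were -3.94, -3.49 and -2.23. The activators were listed for high effects in these same data, on which their sums also rest. A shift of this kind was common: on summed reads 74.7% of the 79 domains were called lower beside activators than beside controls. MYBA + SCML2 fell furthest from its sum, by -5.11, and SCML2 + NCOA2 was above its sum by 0.41. With 1 replicate left out, SCML2 had 2 pairs below the sum and PCGF2 between 4 and 6. In memory no pair of the series departed from the sum by limma (0% of 5765 in either direction). At an unadjusted p under 0.05, CBX7 had 7 pairs above and 4 below, SCML2 9 and 11, and PCGF2 8 and 1.

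Some pairs were not called lower. In repression these were 10 CBX7 pairs with 7 partners, 33 PCGF2 pairs with 22 partners and 54 SCML2 pairs with 40 partners. Partners that escaped a call in both orders numbered 3 for CBX7 (DPF1, ITCH and ZN597), 11 for PCGF2 and 14 for SCML2. DPF1, a PHD finger protein of chromatin remodeling complexes, was on all 3 lists. DPY30, ITCH, ZN597, ENSG00000174197 tile 238, DMD tile 130, DMD tile 297 and random 89 were on 2 of them. The pairs below were chosen after their values were seen. ITCH is a ubiquitin ligase, and beside controls its domain stood at -0.03 in repression. CBX7 + ITCH stood at -0.08 (SE 0.26) and ITCH + CBX7 at 0.08 (SE 0.34), near the control pairs, although CBX7 beside controls stood at -3.79. PCGF2 with the same ITCH domain was called lower in both orders, at -1.42 and -1.61, and SCML2 in neither, at -0.09 as first and -0.32 as second domain. DPF1, which was called higher beside controls at 0.67 (SE 0.17), gave -0.27 and -0.39 with CBX7, 0.77 and 0.13 with PCGF2, and 0.09 and -0.68 with SCML2. The single higher call was PCGF2 + CXXC1 at 1.91 (SE 0.68, adjusted p = 0.0296 by edgeR), with scores of 1.86 and 1.92 and 17 and 46 unbound reads. The call was lost without replicate 1 (1.87) and without replicate 2 (1.94). With the order turned, CXXC1 + PCGF2 stood at -0.48. CXXC1 is a CpG-binding subunit of histone methyltransferase complexes.

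DPF1 pairs stood out in memory, in 1 order. DPF1 + CBX7 was the lowest CBX7 pair in memory, with scores of -4.50 and -3.59 (log2 -4.06, SE 0.59, adjusted p = 0.00216 by edgeR). It held 57 and 85 bound against 2004 and 696 unbound reads. DPF1 + SCML2 scored -4.23 and -3.79 (log2 -4.03, SE 0.84, adjusted p = 0.0134), the lowest SCML2 pair called, and DPF1 + PCGF2 stood at -3.21 (SE 0.95, adjusted p = 0.0701). With DPF1 second the values were -0.88, -0.15 and 0.44. DPF1 beside controls was itself low in memory as first domain, at -1.25 (adjusted p = 0.00364 by edgeR), and stood at 0.25 as second domain, not called. Only 3 pairs of these domains were called lower in memory than in repression, beside 0.604% of all 8935: DPF1 + CBX7 by -3.67 (adjusted p = 0.00263 by edgeR), DPF1 + SCML2 by -3.35 (adjusted p = 0.0273) and CBX7 + ITCH by -1.24 (adjusted p = 0.0169). CBX7 + ITCH was itself called lower in memory at -1.31. For PCGF2 the count was 0, with 1 at an unadjusted p under 0.05 and 1 by DESeq2.

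Other low memory pairs of CBX7 were CREM + CBX7 at -3.31 (SE 0.87) and CBX7 + ENSG00000025156 tile 13 at -2.92 (SE 0.37, scores -2.96 and -2.82). For SCML2 they were SUMO3 + SCML2 at -2.77 (SE 0.76) and KRAB M0QYP0 + SCML2 at -1.97 (SE 0.33). For PCGF2, DMD tile 182 + PCGF2 had 0 and 2 bound against 177 and 205 unbound reads, and its scores of -4.51 and -5.91 are set by the floor of 5 reads. Of the 12 memory pairs named by rule, 0 stayed called without replicate 1 and 6 without replicate 2. In repression 10 of 13 stayed called without either, among them CBX7 + ID2 at -5.62 (SE 0.94) and PCGF2 + ID2 at -6.04 (SE 0.91), pairs with ID2, which is known to block the DNA binding of bHLH factors. The low activation pairs included CBX7 + ENSG00000205571 tile 13 at -1.55 (SE 0.35), PCGF2 + MPP8 at -2.12 (SE 0.50), PCGF2 + CBX1 at -2.0 (SE 0.45) and SCML2 + SMCA2 at -1.86 (SE 0.61).

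None of the 3 domains differed between the second and the first position in any screen by edgeR, where 1.27% of the 79 domains were called higher in activation and 0% in either direction in repression and in memory. At an unadjusted p under 0.05 there were 7, 12 and 9 of 79. CBX7 came closest: in repression it stood at -3.97 (SE 0.19) as first domain and at -3.34 (SE 0.18) as second domain, a difference of 0.63 (SE 0.23, adjusted p = 0.150 by edgeR). Its differences were 0.37 (SE 0.23) in activation and 0.32 (SE 0.23) in memory. For SCML2 they were 0.23 (SE 0.32), -0.28 (SE 0.32) and -0.05 (SE 0.32), and for PCGF2 -0.12, -0.06 and -0.27 (SE 0.17 each). Among partners tested in both orders, CBX7 was lower in the first position with 69 of 93 in activation, 69 of 93 in repression and 66 of 94 in memory. For PCGF2 the counts were 40 of 86, 29 of 89 and 39 of 93, and for SCML2 36 of 62, 24 of 68 and 38 of 80. Lower calls of CBX7 pairs followed the position too in 2 screens, with 34 of 99 against 5 of 95 in activation and 64 of 98 against 25 of 97 in memory. In repression they hardly did, with 94 of 98 against 89 of 95. Over all pairs 9.49% were called lower in activation, 7.1% in memory and 56.5% in repression. Reads moved with the position: the median CBX7 pair had 20215 reads in memory with CBX7 first and 5834 with CBX7 second, and the part of depth in these counts was not tested.

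Across ordered partners in repression, SCML2 tile 62 was most like SCMH1, with a Pearson r of 0.813 over 158 partners, then ENSG00000170604 tile 0 (0.701, 157 partners) and ENSG00000069812 tile 10 (0.677, 158 partners). PCGF2 was most like ENSG00000069812 tile 10 (0.793, 182 partners), ENSG00000076108 tile 118 (0.744, 184 partners) and ENSG00000088305 tile 10 (0.729, 182 partners). CBX7 was most like ENSG00000076108 tile 118 (0.682, 189 partners), followed by ENSG00000084093 tile 101 and ENSG00000127124 tile 78 (both 0.634). Among the 3 domains themselves r was 0.617 between PCGF2 and SCML2, 0.539 between CBX7 and PCGF2 and 0.514 between CBX7 and SCML2. These values describe pairs that share partners and libraries.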

How the data were processed

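The deposited values are raw counts of read pairs per ordered domain pair in 12 libraries. Per the submitters' processing notes reads were aligned with Bowtie2 (version not given), and per the series' design text 30 bases were trimmed from each end, each domain was aligned separately and the read pairs of a library member were summed by the authors. The sources used here do not say how cells were sorted into fractions.

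Effects of domains and pairs were tested with edgeR 4.0.16 (quasi-likelihood, R 4.3.3) in a single model of the 12 libraries. It blocks on the replicate within its screen (3 residual degrees of freedom), with TMM scaling over the 441 control pairs. The block rests on the labels: both fractions of a replicate come from 1 separately infected culture. Tests by position and by partner list split each library into a column per position or list, with a block for each. Columns of 1 library share its culture but were fitted as separate samples, so these adjusted p rest on more columns than independent samples. Partner-list columns were scaled on the control domains' sums with the same list. Pairs needed 5 reads in either fraction and 50 in both, in each replicate. Deviations from the sum were tested with limma 3.58.1, and DESeq2 1.42.0 was an alternative. Scores follow the authors' formula, with a floor of 5 reads. PCR reads carry no molecular identifiers, and the 2 replicates per screen limit precision.

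For each domain and screen, up to 4 highest and 4 lowest called pairs with the same sign in both replicates were named, beside same-domain and Polycomb pairs. The domains and lists were chosen with earlier results of these data known. Leaving same-domain pairs out of the control pairs was an alternative chosen after seeing the data. The scripts were tested on simulated counts. The domains' sequences were not used here.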

Additional observations from a re-analysis of the deposited data

Results flagged for a closer look

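The effect of each of the 3 domains beside control domains differed between the repression and the memory screen, by the contrast of the 2 screens in the edgeR fit. Memory minus repression was 2.55 for CBX7 tile 18, 1.82 for SCML2 tile 62 and 1.78 for PCGF2. In both replicates of each domain the memory score was the higher one. With TMM scaling over all pairs the contrast was not called for SCML2 (0.41, adjusted p = 0.209 by edgeR) or PCGF2 (0.37, adjusted p = 0.082), nor with total counts for SCML2 (0.49, adjusted p = 0.102). Such a difference was common, as 46 of the 79 domains were called higher in memory.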

How the results depend on the processing

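Of 528 recomputed values of the main comparisons 437 kept their direction and side of the threshold (counts within 1.5 times), 55 moved, 18 lost and 2 gained a call and 16 changed sign. A further 505 values were of single pairs and of median deviations from the sum. Of these 421 kept theirs (medians within the SD of the replicates), 72 lost their call and none reversed. The 12 that moved were all median deviations. The median read count of member pairs was lowest, at 28, in the unbound library of activation replicate 2. Other scalings moved the zero line: total counts by -1.09 in activation, 1.83 in repression and 0.50 in memory, and TMM over all members by 0.06, 1.97 and 0.56, so that 0 no longer meant the control pairs. With total counts SCML2 stood at -1.49 in activation and 0.0802 in memory and PCGF2 at 0.0306 in memory, and SCML2's memory minus repression was 0.49, not called. With TMM over all members SCML2 stood at -0.27 in repression and 0.14 in memory (difference 0.41) and PCGF2 at -0.28 and 0.0921 (difference 0.37), none called. In the order CBX7, SCML2 and PCGF2, total counts gave 156, 76 and 141 lower calls in activation, 39, 2 and 4 in memory, and 44, 16 and 39 for the difference; SCML2 and PCGF2 had 56 and 94 in repression. TMM over all members gave 34, 2 and 5 in memory and 43, 19 and 39 for the difference, with 54 and 87 in repression. Fitting a screen alone gave 61, 10 and 65 lower calls in activation and 11 for SCML2 in memory, and DESeq2 gave SCML2 12 in activation and 10 in memory. Without DMD tile 31, PCGF2 had 23 activation calls and a KRAB difference in activation of 0.57. Leaving same-domain pairs out of the control pairs, chosen after seeing the data, changed no main comparison, and 2 named pairs missed the threshold.

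The fit without the replicate block changed no call of the main comparisons: it gave -3.77 for CBX7, -2.23 for SCML2 and -2.25 for PCGF2 in repression and -1.24, -0.42 and -0.47 in memory, and 6 named pairs missed the threshold without it. Leaving out a replicate gave 0 to 4 (CBX7), 0 (SCML2) and 2 to 4 (PCGF2) lower calls in activation, 0 to 51, 0 to 1 and 0 to 5 in memory, 71 to 111 in repression for SCML2, and 33 to 82 (SCML2) and 78 to 142 (PCGF2) higher calls for memory minus repression. PCGF2 in memory then ranged from -0.48 to -0.45. Pairs above the sum in repression numbered 56 to 58, 23 to 25 and 23 to 34, and below it in activation 2 for SCML2 and 4 to 6 for PCGF2. PCGF2's KRAB difference in activation ranged from 0.82 to 0.83 and CBX7's activator difference in repression from 1.0 to 1.89, while those of SCML2 in repression ranged from -0.43 to 0.38 and of CBX7 in memory from -0.22 to 0.0623. Position differences ranged from -0.65 to 0.0956 for SCML2 and -0.16 to 0.0541 for PCGF2 in repression, and from -0.35 to 0.26 for SCML2 in memory.

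With limma on mean scores PCGF2 stood at -0.50 in memory (adjusted p = 0.062), and with DMD partners only at -0.48 in memory and -0.33 in activation. PCGF2 was called in none of these. CBX7 in the second position only lost its activation call at -0.40, and SCML2 in the first only gained one at -0.55. PCGF2's KRAB difference in activation was 0.57 with it first and 1.0 with it second, and CBX7's activator difference in repression 1.04 in the second. Uncalled values changed sign: position differences with DMD partners only (SCML2 activation -0.15), random partners only (PCGF2 activation 0.0034 and repression 0.14, SCML2 memory 0.0256), and activator differences in the first position only (PCGF2 repression -0.22, CBX7 memory 0.14, SCML2 memory 0.39). Against the stronger effect 12, 15 and 10 repression pairs were above the expectation, and at 200 reads SCML2 had 34. The cause was not tested for these.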
